A study of Mus musculus with 6 samples.

Results

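*Tbx21*, *Eomes*, *Gata3*, *Rora*, *Irf4*, *Prdm1*, *Maf*, *Bhlhe40* and *Nfil3* encode transcription factors that steer T cells toward effector fates. These 9 genes were chosen by name, with earlier results of these data known, and are 9 of the 45777 genes listed in the deposited tables. For each of them, the estimated read counts of its transcripts were summed and CD4+Lrig1+ T cells were compared with CD4+Lrig1- T cells. All 9 had enough counts to be tested and were among the 16123 genes tested.

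Both groups were primary CD4+ T cells isolated from the spleens of female C57BL/6 mice, an inbred laboratory strain, at 7 weeks of age, with no treatment named. They differed in whether the cells carried Lrig1, a membrane protein with leucine-rich repeats and immunoglobulin-like domains, on the surface. The labels list 3 samples per group. Of these, 2 CD4+Lrig1+ and 2 CD4+Lrig1- libraries were analysed, 1 per group in each of 2 deposited tables (called set 1 and set 2), with 44865070 to 59977951 estimated counts per library. The study describes its samples in general as biologically independent. Its legend for the figure with the RNA heatmap gives n = 3 and says that the figure's data came from 3 or more independent experiments. The sources do not say for these libraries whether they came from separate mice or pools. The p-values therefore measure only the spread between these libraries, which may be technical.

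An antigen-stimulated CD4+ T cell takes on a helper fate when lineage-specifying transcription factors switch on one set of cytokine and receptor genes and hold down the others. T-bet specifies Th1 cells, GATA3 specifies Th2 cells, and ROR family receptors specify Th17 cells. IRF4, Blimp-1, c-Maf, BHLHE40 and NFIL3 act across lineages, downstream of antigen receptor and cytokine signals. Regulatory T (Treg) cells, which are defined by Foxp3, also use these factors when they become effector Treg cells, so that a lineage factor does not by itself identify a helper cell. In bulk RNA, fewer cells of a type and less RNA per cell cannot be told apart.

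The promoters of the T-box pair, *Eomes* and *Tbx21*, are shown because these related genes differed in opposite directions between the groups. Those of *Irf4* and *Nfil3* are shown because these genes were far higher in CD4+Lrig1+ T cells, and that of *Prdm1* because its level was close in both groups. Each sequence is from RefSeq (GRCm38.p6), runs 5′ to 3′ on the strand of the gene from 250 bases before the annotated start to 50 bases after it, and has matches to the motifs named next in capitals.
Eomes, chr9:118477939-118478238, plus strand: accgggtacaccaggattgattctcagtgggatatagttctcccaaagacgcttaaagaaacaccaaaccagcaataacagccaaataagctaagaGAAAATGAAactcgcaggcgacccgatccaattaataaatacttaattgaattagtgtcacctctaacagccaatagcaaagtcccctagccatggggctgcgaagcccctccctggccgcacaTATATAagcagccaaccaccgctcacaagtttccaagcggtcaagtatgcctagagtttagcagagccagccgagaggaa
Tbx21, chr11:97115282-97115581, minus strand: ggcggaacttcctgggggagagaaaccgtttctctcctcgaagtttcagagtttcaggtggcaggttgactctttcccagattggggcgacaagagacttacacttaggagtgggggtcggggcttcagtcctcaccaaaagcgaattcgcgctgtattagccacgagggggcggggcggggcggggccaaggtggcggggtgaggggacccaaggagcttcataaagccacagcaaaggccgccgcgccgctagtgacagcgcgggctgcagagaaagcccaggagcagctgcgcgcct
Irf4, chr13:30748983-30749282, plus strand: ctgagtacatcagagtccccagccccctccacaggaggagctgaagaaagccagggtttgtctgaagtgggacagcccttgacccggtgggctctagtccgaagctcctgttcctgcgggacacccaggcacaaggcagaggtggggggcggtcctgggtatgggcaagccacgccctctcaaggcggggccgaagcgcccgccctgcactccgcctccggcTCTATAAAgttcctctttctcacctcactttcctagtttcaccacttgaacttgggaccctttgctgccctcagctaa
Nfil3, chr13:52980990-52981289, minus strand: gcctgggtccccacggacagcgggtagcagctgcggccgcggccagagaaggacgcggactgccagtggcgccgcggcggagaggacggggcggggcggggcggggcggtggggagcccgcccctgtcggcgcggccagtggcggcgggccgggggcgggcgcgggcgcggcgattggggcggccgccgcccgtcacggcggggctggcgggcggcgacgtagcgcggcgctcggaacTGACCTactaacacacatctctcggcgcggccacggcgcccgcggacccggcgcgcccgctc
Prdm1, chr10:44458699-44458998, minus strand: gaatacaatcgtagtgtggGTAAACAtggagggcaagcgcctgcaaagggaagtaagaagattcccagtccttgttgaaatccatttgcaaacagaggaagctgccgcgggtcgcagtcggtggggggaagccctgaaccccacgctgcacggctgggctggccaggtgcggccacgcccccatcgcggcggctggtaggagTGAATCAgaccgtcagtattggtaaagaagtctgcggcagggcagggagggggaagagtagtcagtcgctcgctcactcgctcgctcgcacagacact

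Promoters of 7 of the 9 genes were matched by symbol in a table of 32851 promoters of the same length, and *Maf* and *Bhlhe40* were not matched. Both strands were searched for 11 motifs, some of which were added after the sequences had been seen. A TATA motif (TATANA) was found in the *Eomes* promoter at -30, counted from the annotated start, and in the *Irf4* promoter at -26, where it overlapped a match on the other strand at -28. This motif is in 24.7% of all promoters in the table. An IRF motif (GAAANNGAA, in 8.56% of all promoters) lay at -154 of *Eomes*. The *Prdm1* promoter held an AP-1 motif (TGANTCA, in 7.81%) at -48 and a forkhead motif (GTAAACA, in 3.65%) at -231. A ROR half-site (AGGTCA, in 16.3%), read on the opposite strand, lay at -12 of *Nfil3*. No match was found in the windows of *Tbx21*, *Gata3* and *Rora*, nor in any of the 7 for the E-box CACGTG (7.15% of all promoters), the GATA motif AGATAA (11.2%), the T-box motif GGTGTGA (3.98%), the STAT motif TTCNNNGAA (8.30%), the NFIL3 motif TTANNTAA (6.00%) and the Maf motif TGCTGAC (4.67%). These are matches of letters and not measured binding. The *Rora* window lies at the start of the long transcript NM_013646 (68653786). Most *Rora* counts were assigned to NM_001289916, which starts at 69289841, and no window was searched there. In base composition the *Nfil3* promoter was the most GC-rich of the 7, at 81.7% G or C, and *Eomes* the least, at 47.3%, against a median of 52.7% over all promoters. The ratio of observed to expected CpG was 1.10 for *Nfil3* and 0.398 for *Irf4*, the highest and lowest of the 7, against a median of 0.384.

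The set mattered more than the group for how alike the libraries were. The correlation of log2 CPM (counts scaled to library size and normalized by the TMM method) over genes, which are no independent replicates, was 0.960 and 0.959 for the groups within a set and 0.908 for the sets within each group. Values are therefore given per set, and a fit with a term for the table of each library (the table block) is given beside the one without it. *Lrig1* itself went from 75.4 to 221 CPM between the CD4+Lrig1- and CD4+Lrig1+ libraries of set 1, and from 36.7 to 129 CPM in set 2, so that both sorted pairs went with their labels. The defining T cell genes on a list of 10 were all detected, with summed CPM of 4677 and 7192 in the CD4+Lrig1- libraries and 4897 and 7238 in the CD4+Lrig1+ libraries.

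Of the 9 factors, 6 had both CD4+Lrig1+ libraries above both CD4+Lrig1- libraries in CPM (*Eomes*, *Gata3*, *Irf4*, *Maf*, *Bhlhe40* and *Nfil3*), as did 14.3% of all genes tested. *Tbx21* was lower in both CD4+Lrig1+ libraries than in either CD4+Lrig1- library, as were 11.8% of all genes. *Rora* and *Prdm1* overlapped between the groups. Within the sets, 8 of the 9 had a positive log2 ratio in both, against 36.5% of all genes. These include *Prdm1* at 0.09 and 0.03, whose ratio in set 1 was below 0 on a scale that accounts for transcript length. A smaller number, 5, were higher by at least 2-fold in both (*Eomes*, *Irf4*, *Maf*, *Bhlhe40* and *Nfil3*), against 7.37% of all genes. The median log2 fold change of the 9 was 1.60, beside -0.04 for all genes tested. Because the factors were chosen with earlier results known, these comparisons describe the 9 genes and are no test.

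By the quasi-likelihood test of edgeR with no block, 0 of the 9 factors and 0 of the 16123 genes passed an adjusted p of 0.05, and the smallest adjusted p of any gene was 0.501. At an unadjusted p under 0.05, 5 of the 9 factors were higher, against 4.18% of all genes (674 genes), and 0 were lower, against 1.41% (227 genes). With the table block, which leaves 1 residual degree of freedom, 7 factors were higher and 1 was lower, against 14.6% and 12.8% of all genes. The Wald test of DESeq2 without a block called 3 factors higher (*Nfil3*, *Irf4* and *Eomes*), against 1.61% of all genes. A gene is said to have risen or fallen where the fit with the table block called it. On a simulated data set this fit made more false calls than its threshold allows, so its calls and adjusted p-values are to be read with that limit. An exact permutation test on 2 libraries against 2 cannot give a p below 0.333.

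**Figure D1:**
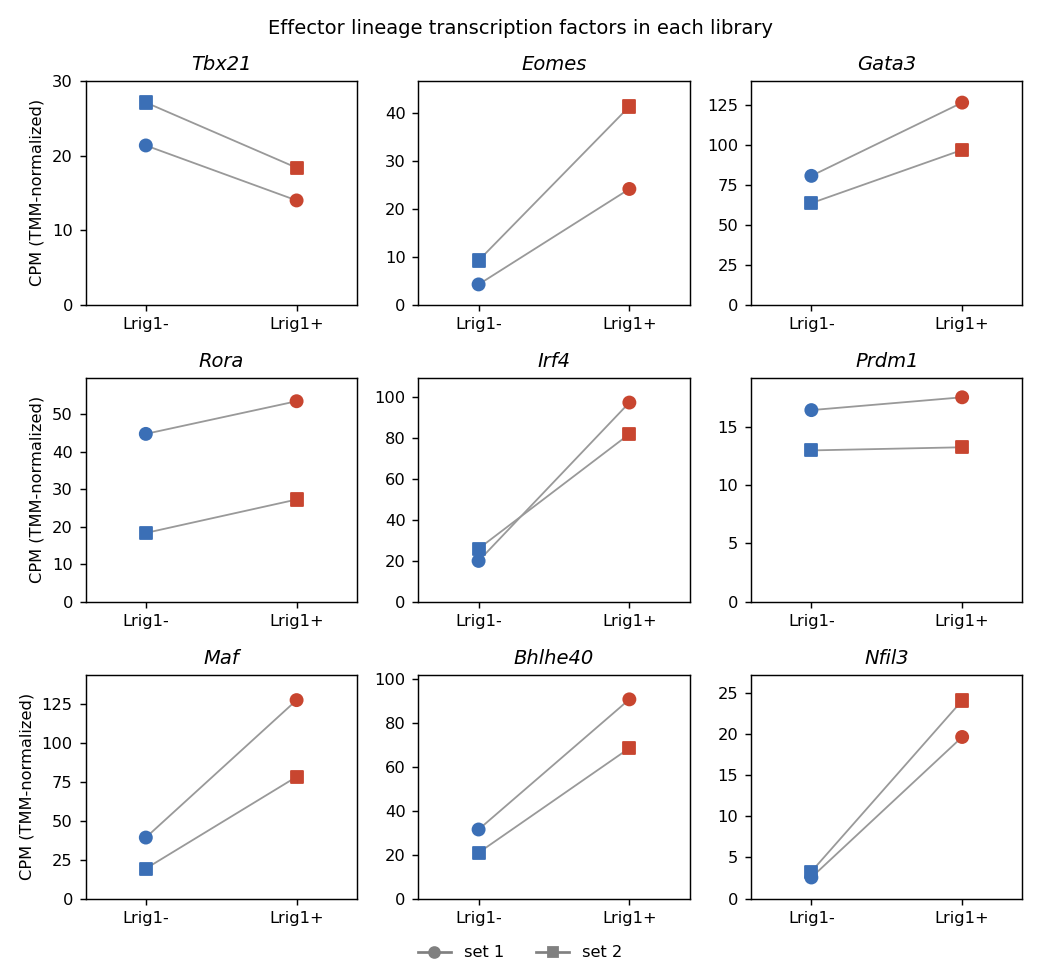
TMM-normalized CPM of each factor (vertical axes, linear and starting at 0) in CD4+Lrig1- (blue) and CD4+Lrig1+ (red) libraries, with circles for set 1, squares for set 2 and a line joining the libraries of a set. *Tbx21* slopes down in both sets, *Prdm1* is almost level, and *Nfil3* goes from 2.57 to 19.6 CPM in set 1 and from 3.28 to 24.0 CPM in set 2.

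The T-box factors of the Th1 lineage differed in opposite directions. *Tbx21* encodes T-bet, the master regulator of Th1 cells and of interferon-γ expression (gene ID 57765, chromosome 11 of GRCm38 from 97098007 to 97115331). It was at 21.4 and 27.1 CPM in the CD4+Lrig1- libraries of sets 1 and 2 and at 13.98 and 18.4 CPM in the CD4+Lrig1+ libraries. The CD4+Lrig1- libraries were thus higher by 1.53-fold and 1.48-fold within the sets. The groups did not overlap, although the distance between 18.4 and 21.4 CPM was smaller than that between the 2 libraries of either group. Its log2 fold change of -0.58 had an adjusted p of 1.00 by edgeR (SE 0.33), and with the table block it was -0.59 (SE 0.10, adjusted p = 0.00423).

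*Eomes*, the gene for Eomesodermin, a T-box factor of cytotoxic lymphocytes and memory cells (gene ID 13813, chromosome 9 from 118478186 to 118486132), was at 4.20 and 9.18 CPM in the CD4+Lrig1- libraries. In the CD4+Lrig1+ libraries it was at 24.1 and 41.3 CPM, or 5.74-fold and 4.50-fold higher within the sets. The groups did not overlap, and in each group the library of set 2 was the higher one. Its log2 fold change was 2.29 (SE 0.58, adjusted p = 0.663), and 2.33 with the table block (SE 0.12, adjusted p = 2.98e-05).

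Per transcript length, in TPM (transcripts scaled by length to a common total), the order of the pair turned over between the groups. In CD4+Lrig1- T cells *Eomes* was at 2.90 TPM in set 1 and 3.50 in set 2 beside 21.5 and 15.0 TPM for *Tbx21*, which is 0.135 and 0.234 times its level. In CD4+Lrig1+ T cells *Eomes* was at 16.3 and 17.0 TPM beside 13.7 and 11.0 TPM for *Tbx21*, or 1.19 and 1.55 times its level. The *Eomes* to *Tbx21* ratio was thus above 1 in both CD4+Lrig1+ libraries and below 1 in both CD4+Lrig1- libraries.

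Natural killer (NK) cells also express both T-box factors. All 10 NK cell markers examined were detected in every library and lower in CD4+Lrig1+ T cells of both sets, and 9 of the 10 were called lower with the table block. Their summed CPM was 50.4 and 164.8 in the CD4+Lrig1- libraries and 14.3 and 64.5 in the CD4+Lrig1+ libraries. *Tbx21* was lower together with them while *Eomes* was higher. Both CD8 genes were also lower, with summed CPM of 19.5 and 97.3 against 14.1 and 51.6. The part of these cells in the *Tbx21* difference was not tested.

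*Gata3*, which encodes the zinc finger factor of Th2 cells and is also needed by Treg cells (gene ID 14462, chromosome 2 from 9857078 to 9887953), was at 80.5 and 63.5 CPM in CD4+Lrig1- and at 126 and 96.7 CPM in CD4+Lrig1+ T cells. It was higher by 1.57-fold in set 1 and 1.52-fold in set 2, and the groups did not overlap in CPM. Over all libraries its log2 fold change was 0.63 (SE 0.32, adjusted p = 1.00), or 0.63 with the table block (SE 0.07, adjusted p = 6.57e-04). In TPM the CD4+Lrig1- library of set 1 (64.3) exceeded the CD4+Lrig1+ library of set 2 (45.9), so the groups overlapped on that scale, while the ratio within each set stayed above 1. *Gata3* had the highest TPM of the 9 factors in all 4 libraries. Its ratio to *Tbx21* was 2.99 and 1.86 in CD4+Lrig1- and 7.18 and 4.18 in CD4+Lrig1+ T cells.

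*Rora* encodes ROR alpha, a nuclear receptor of Th17 cells, group 2 innate lymphoid cells and tissue Treg cells (gene ID 19883, chromosome 9 from 68653404 to 69388246). It was at 44.7 and 18.3 CPM in CD4+Lrig1- and at 53.4 and 27.2 CPM in CD4+Lrig1+ T cells. The sets differed more than the groups did: *Rora* was 2.44-fold higher in set 1 than in set 2 among CD4+Lrig1- and 1.96-fold among CD4+Lrig1+ libraries, against 1.20-fold and 1.49-fold for CD4+Lrig1+ over CD4+Lrig1- within the sets. The groups overlapped, with a log2 fold change of 0.36 (SE 0.62, adjusted p = 1.00), and with the table block 0.41 (SE 0.10, adjusted p = 0.0243). That call was not made with DESeq2's size factors in the blocked edgeR fit (adjusted p = 0.0603) or with the blocked DESeq2 Wald test (adjusted p = 0.0706). Of 8 markers of group 2 innate lymphoid cells, only *Hes1* and *Kit* had enough counts to be tested. The list summed to 10.4 and 10.1 CPM in CD4+Lrig1- and 2.50 and 3.73 CPM in CD4+Lrig1+ libraries, with 2 to 4 of its genes at 0 in each library. Most of each sum was *Kit*, at 9.06 and 6.94 CPM in CD4+Lrig1- and 1.83 and 2.11 CPM in CD4+Lrig1+ libraries, so the sum says little about the list. The part of group 2 innate lymphoid cells in the *Gata3* and *Rora* values was not tested.

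*Irf4*, an interferon regulatory factor induced by antigen receptor signals and required for effector Treg, Th2 and Th17 cells (gene ID 16364, chromosome 13 from 30749233 to 30766981), was at 19.9 and 25.9 CPM in CD4+Lrig1- and at 97.4 and 82.0 CPM in CD4+Lrig1+ T cells. It was higher by 4.89-fold in set 1 and 3.17-fold in set 2, and the lowest CD4+Lrig1+ library was far above the highest CD4+Lrig1- library. Over all libraries its log2 fold change was 1.97 (SE 0.31, adjusted p = 0.550), with the table block 1.97 (SE 0.14, adjusted p = 1.20e-04), and the unblocked DESeq2 Wald test gave an adjusted p of 0.00319. *Batf*, whose product binds DNA together with IRF4, was at 19.9 and 28.4 CPM in CD4+Lrig1- and 47.3 and 82.4 CPM in CD4+Lrig1+ T cells, and rose as well (log2 fold change 1.39 with the table block, adjusted p = 1.08e-04 in the same fit).

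*Prdm1* encodes Blimp-1, a repressor active in plasma cells and in effector and IL-10-producing T cells, which IRF4 is known to activate (gene ID 12142, chromosome 10 from 44437174 to 44528558). Its levels were 16.4 and 13.0 CPM in CD4+Lrig1- and 17.5 and 13.3 CPM in CD4+Lrig1+ T cells. The groups overlapped, and the CD4+Lrig1+ level divided by the CD4+Lrig1- level was 1.07 in set 1 and 1.02 in set 2. A log2 fold change of 0.07 was found (SE 0.34, adjusted p = 1.00) and, with the table block, 0.06 (SE 0.10, adjusted p = 0.712). *Prdm1* was thus the only one of the 9 that passed the threshold in none of these fits, which does not show that its level was equal. Since plasma cells express both *Prdm1* and *Irf4*, 6 plasma cell markers were examined: of the 5 that were tested, the table block fit called *Tnfrsf13b* higher and *Mzb1* lower. The list summed to 37.7 and 192.5 CPM in CD4+Lrig1- and to 60.8 and 150.6 CPM in CD4+Lrig1+ libraries, and *Tnfrsf17* was at 0 in both libraries of set 1. The part of these cells in the *Irf4* and *Prdm1* values was not tested.

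*Maf* encodes c-Maf, a bZIP factor of T follicular helper (Tfh) cells and of IL-10-producing T cells (gene ID 17132, chromosome 8 from 115703253 to 115706894). It was at 39.2 and 19.3 CPM in CD4+Lrig1- and at 127 and 78.1 CPM in CD4+Lrig1+ T cells. Within the sets it was higher by 3.25-fold and 4.05-fold, and without overlap, with set 1 above set 2 in both groups. This gave a log2 fold change of 1.81 (SE 0.52, adjusted p = 0.705), or 1.86 with the table block (SE 0.10, adjusted p = 2.86e-05).

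*Bhlhe40*, a basic helix-loop-helix repressor that promotes inflammatory cytokines and holds down IL-10 (gene ID 20893, chromosome 6 from 108660629 to 108666925), was at 31.5 and 21.0 CPM in CD4+Lrig1- and 90.9 and 68.6 CPM in CD4+Lrig1+ T cells. It was higher by 2.88-fold and 3.28-fold, without overlap. The log2 fold change was 1.60 (SE 0.37, adjusted p = 0.646), and 1.62 with the table block (SE 0.09, adjusted p = 3.03e-05). Myeloid cells also express *Maf* and *Bhlhe40*. All 10 myeloid markers were detected in every library, and the table block fit called 4 higher (*C1qa*, *C1qb*, *Csf1r* and *Vcam1*) and 2 lower (*Itgam* and *Mpeg1*). *C1qa*, a complement gene of macrophages, was at 0.564 and 8.80 CPM in CD4+Lrig1- and at 3.81 and 33.8 CPM in CD4+Lrig1+ T cells, and *Vcam1* at 2.26 and 25.5 against 11.2 and 70.1 CPM, the same direction as *Maf* and *Bhlhe40*. The sum of the 10 was 64.6 and 292.5 CPM in CD4+Lrig1- and 69.3 and 344.0 CPM in CD4+Lrig1+ libraries. In each group these markers were more abundant in set 2, and *Maf* and *Bhlhe40* in set 1. Those are differences between sets and not between groups. The part of myeloid cells in the *Maf* and *Bhlhe40* values was not tested.

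*Nfil3*, which encodes a bZIP repressor of Th2 cytokine and clock genes and a factor for innate lymphocyte development (gene ID 18030, chromosome 13 from 52967209 to 52982878), had the largest fold change of the 9. It was at 2.57 and 3.28 CPM in CD4+Lrig1- and at 19.6 and 24.0 CPM in CD4+Lrig1+ T cells, or 7.64-fold and 7.33-fold higher within the sets. The groups were widely separated and the libraries of each group lay close together. The log2 fold change was 2.90 (SE 0.36, adjusted p = 0.501), and 2.90 with the table block (SE 0.12, adjusted p = 1.28e-05). The unblocked DESeq2 Wald test called it as well (adjusted p = 1.01e-05). Markers of dendritic cells, which also depend on *Nfil3* and *Irf4*, were lower as a sum in CD4+Lrig1+ libraries. The 8 markers summed to 83.2 and 90.0 CPM in CD4+Lrig1- and to 23.8 and 26.2 CPM in CD4+Lrig1+ libraries. With the table block 5 of them were called lower and 0 higher, and none was at 0. *Ccr9* alone was at 24.1 and 28.4 CPM in CD4+Lrig1- and at 9.54 and 12.55 CPM in CD4+Lrig1+ libraries. In both sets 7 markers were lower and 1 was higher. The higher one, *Xcr1*, was not called, at 0.251 and 0.833 CPM in CD4+Lrig1- against 0.923 and 1.41 CPM in CD4+Lrig1+ libraries. The part of dendritic cells in the *Nfil3* and *Irf4* values was not tested.

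**Figure D2:**
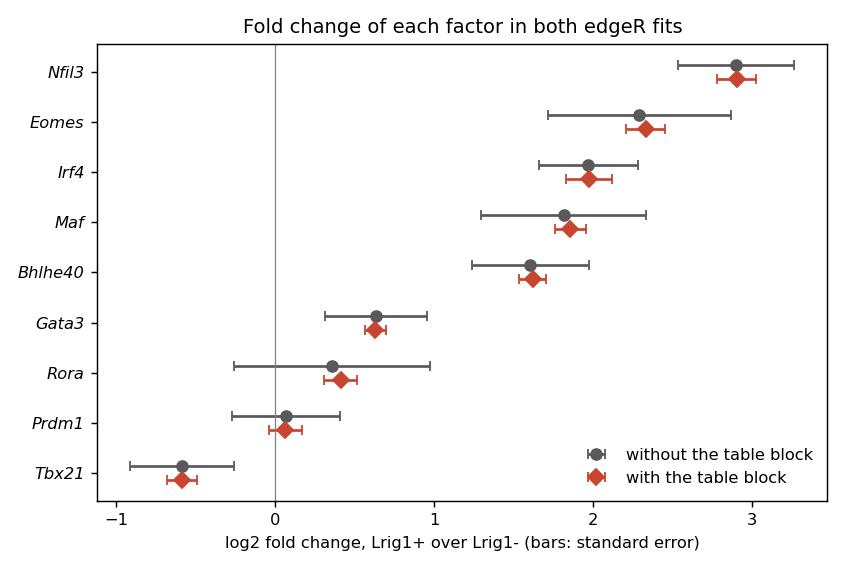
Log2 fold change of each factor, CD4+Lrig1+ over CD4+Lrig1-, over the 4 libraries, without (grey circles) and with (red diamonds) the table block. Bars are standard errors derived from the test statistic of each fit. The fold changes nearly coincide while the standard errors shrink, for *Maf* from 0.52 to 0.10.

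The fold changes hardly depended on the block, in contrast to their errors. Without it, the standard errors were from 0.31 to 0.62 on the log2 scale, the largest for *Rora*, *Eomes* and *Maf*, whose levels differed most between sets. With it they were from 0.07 to 0.14. In set 1 the log2 ratios of the 9 factors had a median of 1.53 and in set 2 of 1.66, beside 0.005 and -0.06 over all genes tested.

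**Figure D3:**
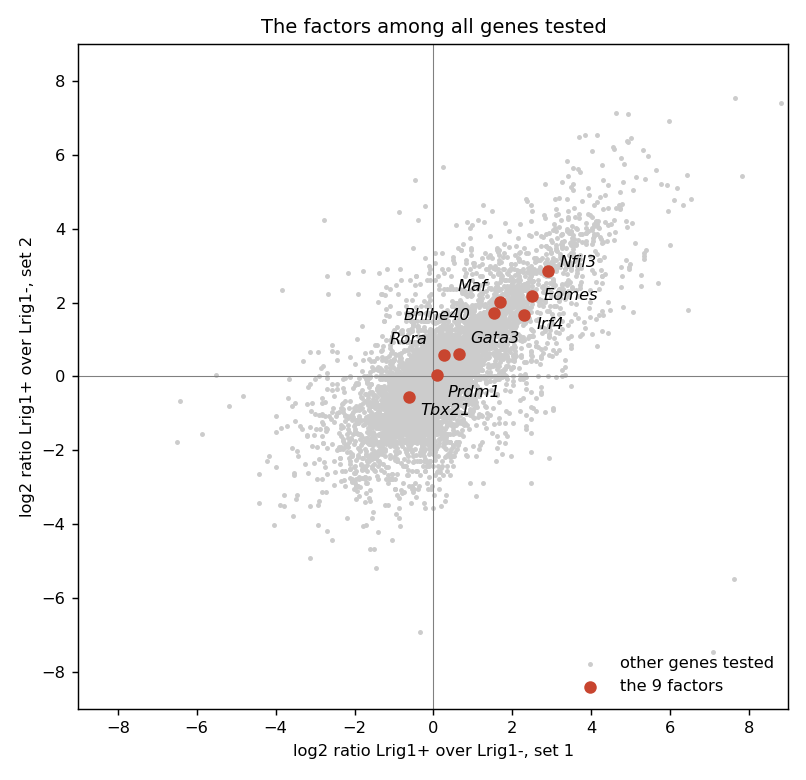
Log2 ratio between the CD4+Lrig1+ and CD4+Lrig1- libraries of set 1 (horizontal axis) and of set 2 (vertical axis) for all 16123 genes tested (grey) and the 9 factors (red). *Nfil3* (2.91 and 2.86), *Eomes*, *Irf4*, *Maf* and *Bhlhe40* lie in the upper right, *Prdm1* (0.09 and 0.03) near the origin, and *Tbx21* (-0.61 and -0.56) in the lower left.

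Ranked by TPM, which allows levels of different genes to be compared, *Gata3*, *Maf* and *Bhlhe40* took the first 3 places in both CD4+Lrig1+ libraries. In set 1 these were at 98.1, 87.3 and 72.9 TPM, and in set 2 at 45.9, 32.7 and 33.6 TPM, where *Maf* and *Bhlhe40* were almost level and in the reverse order. *Irf4* followed at 51.1 and 26.3 TPM, then *Nfil3* at 23.1 and 18.4 TPM. In both CD4+Lrig1- libraries *Nfil3* was the lowest of the 9, at 1.501 and 1.06 TPM, so that it went from the ninth place to the fifth. *Tbx21* went the other way, from the fourth and second places in CD4+Lrig1- to the seventh in both CD4+Lrig1+ libraries. *Prdm1*, at 7.44 and 3.64 TPM, was the lowest in both CD4+Lrig1+ libraries, next to *Rora* at 12.3 and 3.82 TPM, and in set 2 these neighbours were almost level. On the TPM scale 5 factors were higher and 1 lower in CD4+Lrig1+ without overlap, against 15.7% and 7.19% of all genes tested.

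The transcripts to which the counts were assigned differed between groups for *Nfil3*. The tables list 34 transcripts for the 9 genes. Both CD4+Lrig1- libraries had 0 counts on the transcript NM_017373 of *Nfil3*, which starts at the promoter shown (chromosome 13, 52981039 on the minus strand), and all of their counts (123 and 177) on the predicted transcript XM_017315418, which starts at 52980193, inside the gene. In the CD4+Lrig1+ libraries NM_017373 had 887 and 1246 counts, or 87.0% and 90.3% of the *Nfil3* counts, and XM_017315418 had 109 and 9. Because XM_017315418 is listed at 4360 bases and NM_017373 at 1992, the difference was larger per length: the log2 ratio of TPM was 3.94 in set 1 and 4.12 in set 2, beside 2.91 and 2.86 from summed counts. These are estimates from short reads, and the split between overlapping transcripts of 1 gene was not measured directly.

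For *Prdm1* the split between transcripts varied without regard to group. NM_007548, whose start is that of the promoter shown, took 79.9% of the counts in the CD4+Lrig1- library and 45.5% in the CD4+Lrig1+ library of set 1, but 2.0% and 71.1% in set 2, with nearly all the rest on XM_006512504, which is listed with a start inside the gene. In TPM the log2 ratio of *Prdm1* was -0.06 in set 1 and 0.38 in set 2. *Rora* counts lay almost wholly on NM_001289916, which starts at 69289841, and not on the long transcript NM_013646, which starts at 68653786. The long form had 273 counts (27.6%) in the CD4+Lrig1- library of set 2 and 0 in the other libraries. NM_010136 of *Eomes* took 65.5% to 89.6% of its counts. For *Irf4* the share of NM_013674 followed the sets, with 74.8% and 70.3% in set 1 and 51.8% and 51.0% in set 2, and for *Gata3* NM_008091 took 48.8% to 54.1%. *Tbx21*, *Maf* and *Bhlhe40* have 1 listed transcript each.

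**Figure D4:**
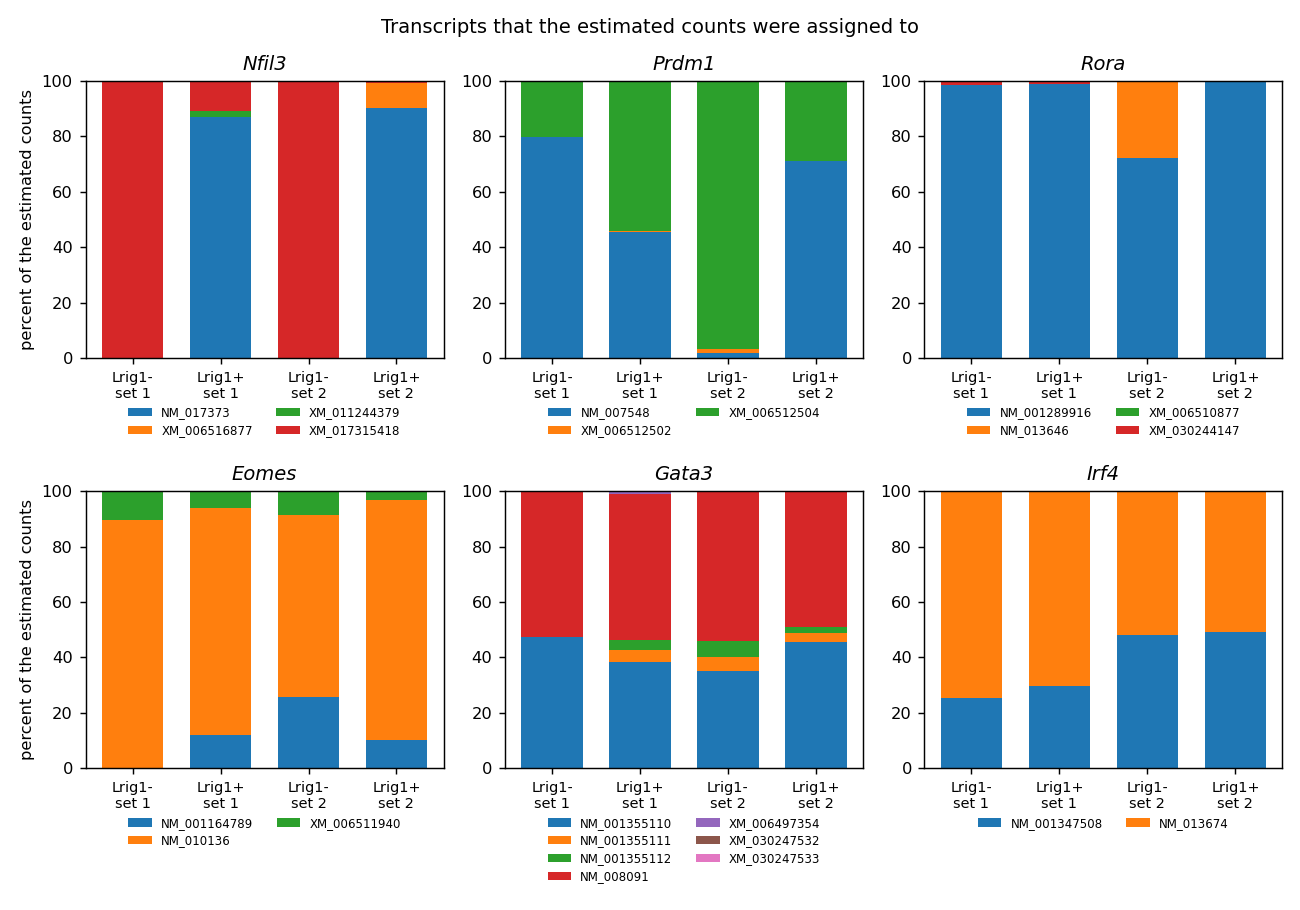
Percent of the estimated counts of 6 factors assigned to each listed transcript with counts (stacked bars, 0 to 100%) in each library. In *Nfil3* the bars of both CD4+Lrig1- libraries consist of a single transcript that takes 10.7% and 0.652% in CD4+Lrig1+ libraries, whereas the *Prdm1* bars follow neither group nor set.

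Annotated genes overlapping the factors added few counts. Transcription of 4930412O13Rik, on the strand opposite to *Gata3*, was given 13 counts in the CD4+Lrig1- and 54 in the CD4+Lrig1+ library of set 1 and 0 in set 2, against 3427 to 6566 for *Gata3*. The other overlapping genes of *Gata3*, *Eomes*, *Bhlhe40* and *Rora* had at most 6 counts in any library. The library kit marked strand, but the strand setting of the counting is not given in the sources used here.

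Other factors that set T cell fate were divided. For the lists of genes described next, which were also chosen with earlier results known, fold changes are those over all 4 libraries without the table block. The calls, made with it, are to be read beside the 14.6% higher and 12.8% lower among all genes. Of 20 such genes, all tested, 5 rose and 8 fell with the table block, and their median log2 fold change was 0.01, beside -0.04 for all genes. *Foxp3*, which defines Treg cells, was at 48.9 and 30.7 CPM in CD4+Lrig1- and 589 and 615 CPM in CD4+Lrig1+ T cells (log2 fold change 3.92). *Batf*, *Ahr*, which encodes the aryl hydrocarbon receptor, and *Bcl6*, the Tfh factor and opponent of Blimp-1, were higher by 1.42, 1.49 and 0.96 on the log2 scale. *Id2*, *Zbtb16*, the factor of innate-like T cells, *Lef1*, a factor of naive T cells, and *Runx3*, a partner of T-bet, were among those lower, with log2 fold changes of -1.02, -1.96, -1.39 and -0.74. *Stat3*, *Stat6*, *Ikzf3*, *Zeb2* and *Bhlhe41* were among those not called.

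Most genes of the Th1 program were lower in CD4+Lrig1+ T cells, as *Tbx21* was. Of 16 Th1 genes, 4 rose and 11 fell with the table block, with a median log2 fold change of -0.81. *Ccl5*, a chemokine, was at 40.7 and 89.2 CPM in CD4+Lrig1- and at 10.8 and 20.5 CPM in CD4+Lrig1+ T cells, and *Cxcr6*, *Prf1* (perforin) and *Il12rb2*, a receptor chain for the Th1-inducing cytokine IL-12, had log2 fold changes of -2.32, -2.06 and -2.58. The 4 higher genes were *Il2rb*, *Cxcr3*, *Klrg1* and *Ifng*. *Il2rb*, a chain of the IL-2 receptor and a known target of T-box factors, was at 287 and 246 CPM in CD4+Lrig1- and at 1030 and 1060 CPM in CD4+Lrig1+ T cells. *Ifng* had a log2 ratio of 0.31 in set 1 and 1.38 in set 2. Several Th1 genes, *Ccl5* and *Prf1* among them, are also NK cell genes, and the NK cell markers given above were lower in the same libraries. The part of NK cells in the Th1 gene values was not tested.

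Of 14 Th2 genes, 10 were tested, 7 rose and 1 fell with the table block, and the median log2 fold change was 1.53. The chemokine receptor *Ccr8* was at 2.74 and 3.17 CPM in CD4+Lrig1- and at 23.8 and 23.5 CPM in CD4+Lrig1+ T cells. *Ccr4*, *Il9r* and *Ecm1* had log2 fold changes of 2.11, 2.03 and 1.52. Ccr4 and Ccr8 are also known receptors of effector Treg cells. The gene that fell was *Il4ra*, the IL-4 receptor chain, at -0.48. The Th2 cytokine *Il4* was at 0.919 to 1.48 CPM and was not called, and *Il5* and *Il13* had too few counts to be tested. Of 13 Th17 genes, 9 were tested, 2 rose (*Il21* and *Ccr6*, with log2 fold changes of 2.85 and 2.15) and 2 fell (*Tmem176a* and *Tmem176b*), with a median of -0.83, and *Il17a*, *Il17f* and *Il22* had too few counts to be tested.

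Effector Treg genes, the program in which IRF4, Blimp-1, c-Maf and GATA3 are known to take part, were the list with the most genes higher. Of 20 genes, 17 rose and 1 fell with the table block, with a median log2 fold change of 2.23. *Ctla4*, an inhibitory receptor, was at 31.3 and 16.9 CPM in CD4+Lrig1- and at 301 and 211 CPM in CD4+Lrig1+ T cells. *Tnfrsf9*, *Lag3* and *Nt5e* had log2 fold changes of 3.76, 2.94 and 2.83. The gene that fell was *Gzmb* (granzyme B), at -1.02, and *Il10* and *Fgl2* were not called. *Il10*, a shared target of c-Maf and Blimp-1, was at 1.07 and 1.17 CPM in CD4+Lrig1- and at 1.96 and 1.36 CPM in CD4+Lrig1+ T cells.

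Among 12 genes linked to c-Maf and Tfh cells, 8 rose and 1 fell with the table block, with a median log2 fold change of 1.12. *Pdcd1*, which encodes the inhibitory receptor PD-1, was at 9.04 and 17.96 CPM in CD4+Lrig1- and at 83.3 and 169.9 CPM in CD4+Lrig1+ T cells, *Tigit* had a log2 fold change of 2.97 and *Il21* of 2.85. *Havcr2*, the gene of TIM-3, was the gene that fell, with a log2 fold change of -1.92. Genes that Blimp-1 is known to repress were divided, as 5 of 12 rose and 6 fell with a median of -0.62. *Id3*, *Bcl6*, *Cxcr5* and *Il2* were among the higher ones, with log2 fold changes of 1.29, 0.96, 2.02 and 2.60, and *Ciita*, *Bach2*, *Ccr7* and *Il7r* among the lower ones, with -1.70, -0.78, -0.96 and -1.20. B cells also express *Ciita*, *Cxcr5* and the uncalled *Pax5*. The 10 B cell markers were detected in every library and summed to 78.7 and 802 CPM in CD4+Lrig1- and to 98.3 and 403 CPM in CD4+Lrig1+ libraries, 3 of them were called lower and 0 higher with the table block, and their part in these values was not tested.

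The clock genes, through which BHLHE40, NFIL3 and ROR alpha are linked to the circadian oscillator, were also examined. Of 16 genes, 0 rose and 2 fell with the table block, beside 14.6% and 12.8% of all genes, and the median log2 fold change was 0.12. *Cry1* was at 43.4 and 44.5 CPM in CD4+Lrig1- and at 29.9 and 32.3 CPM in CD4+Lrig1+ T cells, and *Cry2* had a log2 fold change of -0.35. *Arntl*, the gene of BMAL1 and a target of ROR alpha, and *Dbp*, whose product competes with NFIL3 for D-box sites, were not called, with log2 fold changes of 0.14 and 0.26. *Per1* was at 98.7 and 114 CPM in the libraries of set 1 and at 31.8 and 31.6 CPM in those of set 2.

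**Figure D5:**
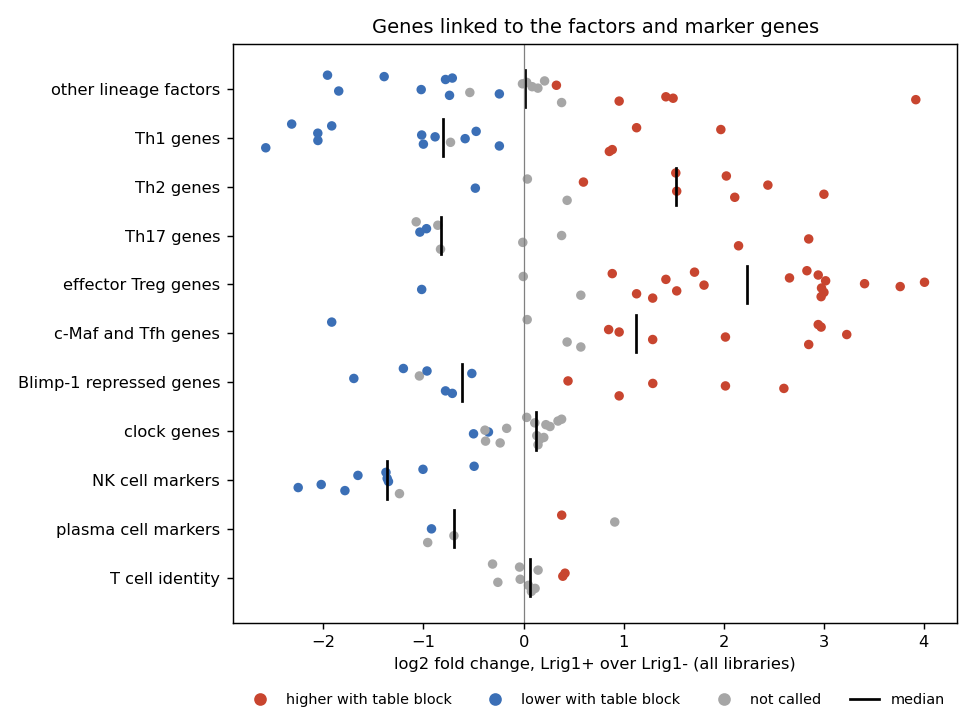
Log2 fold change, CD4+Lrig1+ over CD4+Lrig1-, of each tested gene (points) of the lists linked to the factors and of 3 marker lists, with the median of each list (black bar). Red and blue points passed an adjusted p of 0.05 with the table block, grey points did not, and a gene on more than 1 list is drawn on each. Effector Treg genes (median 2.23) and Th2 genes (1.53) lie to the right, Th1 genes (-0.81) and NK cell markers (-1.37) to the left, and clock genes (0.12) near 0.

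By the distance between log2 CPM values centred on the mean of each gene, the gene nearest to each factor among 8831 genes with a mean of at least 10 CPM was found over the 4 libraries. It was *Gabarapl1* for *Eomes* (distance 0.19), *Ncmap* for *Irf4* (0.20), *Tns1* for *Maf* (0.18), *Kctd17* for *Bhlhe40* (0.12) and *Endod1* for *Nfil3* (0.12). For the factors with small differences the nearest genes were *Slc25a16* for *Tbx21* (0.04), *Gbp6* for *Gata3* (0.03), *Ofd1* for *Rora* (0.12) and *E430024I08Rik* for *Prdm1* (0.01). *Lrig1* was the second nearest gene to *Maf*, at a distance of 0.19 (a feature singled out after its values were seen). With 4 points per gene, from libraries that share sets, many genes have such a pattern.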

How the data were processed

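By the authors' account, reads were trimmed (Trimmomatic 0.38), mapped (HISAT2 2.1.0) and assembled (StringTie 2.1.3b), and Bowtie2 2.3.4.1 is named in the submitters' processing notes, as are GRCm38 and mm10. The deposited tables give 129299 RefSeq transcripts with an estimated count made by the authors, not normalized, and with FPKM values and TPM values that the authors scaled by length and library. The columns carry no replicate numbers. Another table's 6 columns of per-sample values were left out, since their names do not say which cells were Lrig1+.

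Counts were summed per gene in Python 3.11.15. In R 4.3.3, edgeR 4.0.16 was run with filterByExpr, TMM, the quasi-likelihood test and Benjamini-Hochberg adjustment over all genes tested, with 0.05 as threshold. The procedure was tested on a simulated data set, where the unblocked fit missed the changed genes and the table block recovered most of them but made more false calls than its threshold allows. The standard error of a fold change from edgeR was its absolute log2 value divided by the square root of the F statistic of its test. It is therefore no measure of precision apart from that test. A prior count of 2 was added for log2 ratios within sets. Alternatives were the table block, DESeq2 1.42.0, other count filters, FPKM on the log2 scale (pseudocounts 1 and 0.1) in limma 3.58.1, and leaving out each library. The factors, gene lists and tests were chosen with earlier results of these data known. Genes named were the 9 factors, *Lrig1*, from each list at most the 4 with the smallest p per direction with the table block, those needed for a count, and the nearest gene of each factor. *Arntl*, *Dbp* and *Per1* were picked after their values were seen. Some uncalled or untested list genes were also named outside this rule. These were *Stat3*, *Stat6*, *Ikzf3*, *Zeb2*, *Bhlhe41*, *Il4*, *Il5*, *Il13*, *Il17a*, *Il17f* and *Il22*.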

Additional observations from a re-analysis of the deposited data

How the results depend on the processing

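No paired analysis was possible because the columns carry no replicate numbers, other than pairing the libraries by table, which is the table block and leaves 1 residual degree of freedom. Genes called higher and lower were 0 and 0 without it, 2358 and 2056 with it, 1848 and 1969 with it and the DESeq2 Wald test, 2208 and 2388 with it and DESeq2's size factors, and 260 and 50 with the unblocked Wald test. For the 9 factors these numbers were 0 and 0, 7 and 1, 6 and 1, 6 and 1, and 3 and 0. For the genes of all the lists, they were 0 and 0, 43 and 52, 41 and 45, 41 and 51, and 17 and 8. With other count filters, limma, an adjusted p of 0.1 or DESeq2's size factors in the unblocked fit, 0 factors were called. Leaving out each library in turn, where the lone library of a group is assumed to vary like the others, gave 1 to 88 genes higher and 0 to 2 lower, the most without the CD4+Lrig1- library of set 1, of which 0 to 4 and 0 to 1 were on the lists and 0 were among the 9 factors. The log2 fold changes of *Rora* and *Prdm1* then ranged from -0.20 to 1.18 and from -0.13 to 0.29, and both reversed when the CD4+Lrig1+ library of set 1 (-0.20 and -0.13) or the CD4+Lrig1- library of set 2 (-0.15 and -0.09) was absent. Those of the other factors kept their sign in each of these fits (*Tbx21* from -0.80 to -0.37, *Eomes* from 1.84 to 2.97, *Nfil3* from 2.74 to 3.09). With limma on log2(FPKM + 0.1) *Nfil3* reached 3.83, and with a pseudocount of 1 it was at 2.76. FPKM is scaled by transcript length, and the *Nfil3* difference was larger per length, as described above. The cause of the other shifts was not tested.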
